A study of Mus musculus with 9 samples.

Results

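The 10 genes described here belong to 2 linked stress programs of the cell, the unfolded protein response of the endoplasmic reticulum and the response to amino acid shortage. They were chosen by gene symbol, as chaperones of the endoplasmic reticulum and as genes of the ATF4 and CHOP arm, and are 10 of the 33924 genes counted. By role they are the chaperones Hspa5 and Hsp90b1, the degradation factor Herpud1 and the co-chaperone Dnajb9, the transcription factors Xbp1, Atf4 and Ddit3, and the downstream genes Chac1, Trib3 and Asns. All 10 symbols were found as written, and all 10 had enough counts to be tested. The rule names symbols and uses no measured value. The genes, and the lists used below, were nonetheless chosen with earlier results of these data known.

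RNA was sequenced from male mouse embryonic stem cells, pluripotent cells of the early embryo cultured with the cytokine LIF and serum on gelatin, with no treatment in any group. There were 9 libraries in 3 groups of 3. The UTX_WT group is wild type. The UTX_KO group is a knockout of UTX, encoded by Kdm6a on the X chromosome, which removes methyl groups from lysine 27 of histone H3. The MLL4_KD group is labelled as a knockdown of MLL4, encoded by Kmt2d, which methylates lysine 4 of histone H3 at enhancers. Titles name JM8A for wild type, JM8A followed by a further number for the MLL4 knockdown and A6 for the UTX knockout, and do not explain these names. The sources used here do not give the knockdown construct or the number of clones. Line, clone and perturbation thus cannot be told apart.

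When unfolded proteins collect in the endoplasmic reticulum, the sensors IRE1, ATF6 and PERK act through the transcription factors XBP1, cleaved ATF6 and ATF4. IRE1 splices Xbp1 RNA, ATF6 and XBP1 switch on chaperone genes, and PERK phosphorylates eIF2alpha, which lowers general translation while favouring that of Atf4. Shortage of amino acids reaches ATF4 through another eIF2alpha kinase, GCN2, and ATF4 then acts on genes for amino acid supply and on Ddit3, which encodes CHOP. Splicing, cleavage, phosphorylation and translation are not seen in counts per gene, which hold only the amount of each RNA.

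Matches to 3 known promoter elements of the 2 programs differed among the genes, which can be seen before any value is read. The RefSeq promoters (GRCm38.p6) were searched on both strands over the 250 bases before the start of transcription for 3 motifs. The motifs were the endoplasmic reticulum stress element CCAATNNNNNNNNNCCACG, the unfolded protein response element TGACGTGG and the C/EBP-ATF response element TGATGNAA, where N is any base. No motif overlapped another in the members. The 5 promoters that held a motif are printed 5' to 3' on the gene's strand, with the motif in capitals, because complete matches of these letters differed between members. Near matches and bases outside the window were not counted. Other elements of either program and other spacings were not searched, such as attgg and ccacg close together in Herpud1 (attgggccacg). A member without a match is thus not placed outside a program.
Hspa5: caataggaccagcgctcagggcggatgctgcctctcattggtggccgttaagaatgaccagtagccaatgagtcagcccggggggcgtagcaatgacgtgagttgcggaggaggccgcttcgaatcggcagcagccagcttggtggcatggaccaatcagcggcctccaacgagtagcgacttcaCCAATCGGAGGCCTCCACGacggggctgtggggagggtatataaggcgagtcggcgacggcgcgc
Hsp90b1: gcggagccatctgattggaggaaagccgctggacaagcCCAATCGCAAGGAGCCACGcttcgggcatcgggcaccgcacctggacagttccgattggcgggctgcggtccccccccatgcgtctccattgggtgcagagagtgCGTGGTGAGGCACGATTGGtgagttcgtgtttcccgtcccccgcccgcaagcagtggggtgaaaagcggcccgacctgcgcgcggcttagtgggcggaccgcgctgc
Herpud1: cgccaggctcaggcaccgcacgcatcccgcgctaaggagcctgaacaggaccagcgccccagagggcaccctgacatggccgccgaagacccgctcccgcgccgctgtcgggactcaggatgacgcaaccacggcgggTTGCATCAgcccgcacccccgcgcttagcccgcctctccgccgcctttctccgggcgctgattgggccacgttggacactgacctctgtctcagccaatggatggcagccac
Chac1: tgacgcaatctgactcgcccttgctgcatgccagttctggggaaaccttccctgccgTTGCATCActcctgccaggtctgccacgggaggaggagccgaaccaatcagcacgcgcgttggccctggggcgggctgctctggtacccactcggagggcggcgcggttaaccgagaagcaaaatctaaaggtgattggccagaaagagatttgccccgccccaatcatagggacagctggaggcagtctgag
Asns: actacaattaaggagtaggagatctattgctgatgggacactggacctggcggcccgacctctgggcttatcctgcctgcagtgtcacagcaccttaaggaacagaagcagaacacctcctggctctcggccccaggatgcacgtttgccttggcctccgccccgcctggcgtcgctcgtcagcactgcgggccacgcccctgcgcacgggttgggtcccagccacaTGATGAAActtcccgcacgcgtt

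In that order the windows are chr2:34771840-34772089 on the plus strand, chr10:86705445-86705694 on the minus strand, chr8:94386179-94386428 on the plus strand, chr2:119350992-119351241 on the plus strand and chr6:7693210-7693459 on the minus strand. The stress element of Hspa5 lay 65 to 47 bases before the start. Hsp90b1 held it at 212 to 194 bases and, on the other strand, at 107 to 89 bases. It was present in 2 of 10 members and in 37 of the 32851 promoters searched (0.113%). The C/EBP-ATF element lay 112 to 105 bases before the start of Herpud1 and 193 to 186 bases before that of Chac1, both on the other strand, and 23 to 16 bases before that of Asns on the same strand. It was present in 3 of 10 members and in 1134 promoters (3.45%). The unfolded protein response element was in 185 promoters (0.563%) and in 0 members. These matches describe letters in a window, and binding was not measured.

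The libraries held 18570746 to 23874816 counts each, and levels are given in CPM, a gene's counts scaled to library size, after scaling with TMM factors. Kdm6a stood at 89.0, 57.1 and 90.7 CPM in wild type and at 12.8, 17.0 and 19.4 CPM in UTX_KO, a change of -2.27 on the log2 scale (SE 0.20, adjusted p = 0.0002). Kmt2d stood at 86.2, 43.5 and 119 CPM in wild type and at 71.0, 72.0 and 73.4 CPM in the libraries labelled MLL4_KD. Its log2 fold change was -0.20 (SE 0.27, adjusted p = 0.624), so the counts do not show the labelled knockdown against wild type, and these libraries are named by their label throughout. Against UTX_KO, where Kmt2d stood at 110, 96.9 and 130 CPM without overlap, it was -0.64 (adjusted p = 0.0987), and -0.61 with the replicate number as a block (adjusted p = 0.0376). The labels call all groups male, and the 4 tested genes of the Y chromosome had a median log2 fold change of -3.93 in UTX_KO and -4.18 in the libraries labelled MLL4_KD. The 8 markers of embryonic stem cells were detected in all 9 libraries, with summed levels of 4845 to 5742 CPM in wild type, 6066 to 6681 in UTX_KO and 6132 to 6719 in the libraries labelled MLL4_KD. Among all tested genes 6.55% rose and 8.92% fell in UTX_KO, and 10.8% rose and 15.8% fell in the libraries labelled MLL4_KD. Of the 8 stem cell markers 0 rose in UTX_KO (2 with the block) and 1, Zfp42, fell. The libraries labelled MLL4_KD had 4 rises and 2 falls, Zfp42 and Dppa5a. Mean levels there were 2.76 times wild type for Klf4, 1.70 for Esrrb, 1.59 for Nanog, 1.42 for Tdgf1, 0.59 for Zfp42 and 0.47 for Dppa5a. Trophectoderm markers summed to 130, 559 and 484 CPM in wild type, 80.6 to 123 in UTX_KO and 66.3 to 72.8 in the libraries labelled MLL4_KD. Of 7 tested, 5 fell in each perturbed group, and Elf5 was at 0 in 5 libraries. Feeder or fibroblast markers summed to 140, 321 and 248 CPM, to 73.3 to 89.2 and to 138 to 179 CPM in the same order, and 5 of 6 tested fell in each perturbed group, while Vim rose in the libraries labelled MLL4_KD by 0.58 on the log2 scale (adjusted p = 0.0100). Col3a1, Postn and S100a4 were at 0 in several libraries. Primitive endoderm markers summed to 322 to 689, 575 to 932 and 405 to 529 CPM. Of 9 tested 3 rose and 1 fell in UTX_KO, with a median log2 fold change of 0.65. Mean levels in UTX_KO ran from 0.37 times wild type for Dab2 to 2.85 times for Lama1. In the libraries labelled MLL4_KD 4 rose and 1, Sparc, fell, with a median of 0.88. In each case the first wild type library was the lowest of its group. Fewer cells of a type and less RNA per cell cannot be told apart in such samples, and the part of these markers in the results on the 10 genes was not tested.

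Per kilobase of exon the 10 genes spanned a wide range in wild type cells. Hsp90b1 stood at 231 ± 36.3 CPM per kilobase (SD, n = 3), Hspa5 at 186 ± 25.8, Asns at 169 ± 54.6 and Atf4 at 155 ± 30.8. These neighbours in the order lay within their spread of each other. Far below came Xbp1 at 22.5 ± 1.74, Trib3 at 18.2 ± 8.74, Ddit3 at 17.2 ± 6.35 and Herpud1 at 13.9 ± 1.02 CPM per kilobase, and of these Trib3 and Ddit3 spread too widely to be placed against their neighbours. The lowest were Chac1 at 8.70 ± 2.11 and Dnajb9 at 7.57 ± 0.21. The abundant chaperones and the amino acid enzyme thus stood about an order of magnitude above the CHOP-linked genes. In UTX_KO the lowest was Chac1 at 2.81 ± 0.31 CPM per kilobase. In the libraries labelled MLL4_KD the lowest was Ddit3 at 5.15 ± 1.39.

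**Figure D1:**
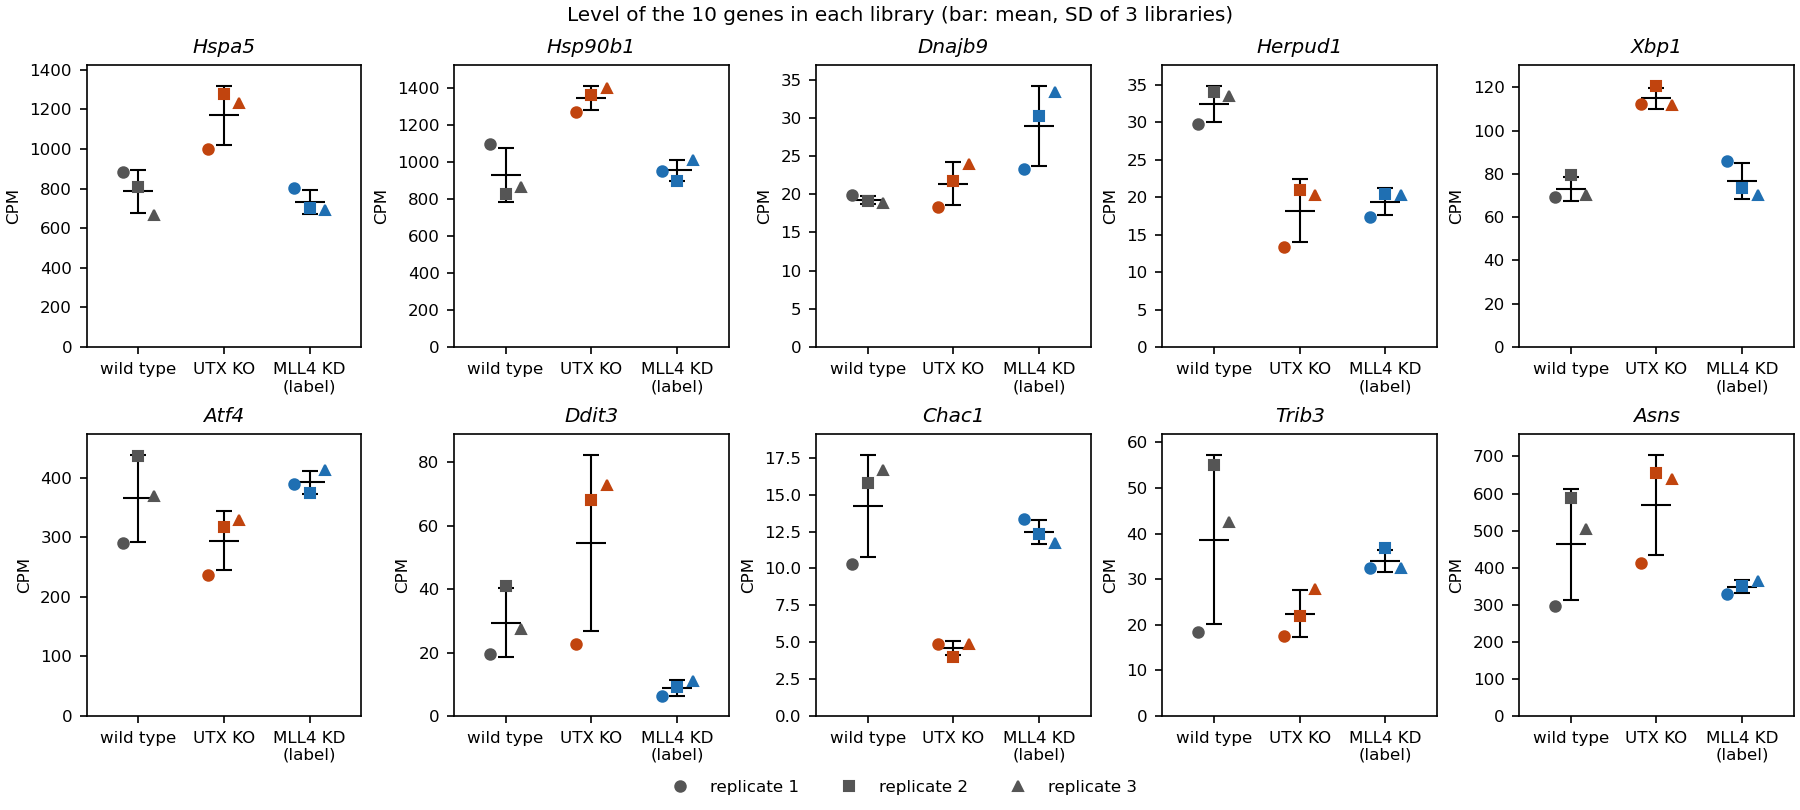
Level of each of the 10 genes in CPM (vertical axes, each from 0) in the 3 groups, with 1 point per library, its shape giving the replicate number, and bars for the mean and SD of 3 libraries. The UTX_KO libraries lie above all others for Hspa5, Hsp90b1 and Xbp1 and below all others for Chac1, and the libraries labelled MLL4_KD lie below all others for Ddit3.

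In UTX_KO, chaperones and Xbp1 rose while Chac1 and Herpud1 fell. Of the 10 genes 3 rose and 2 fell against wild type at an adjusted p under 0.05 (edgeR's quasi-likelihood test, two-sided, Benjamini-Hochberg over 14772 genes). Over all tested genes 6.55% rose and 8.92% fell. The groups did not overlap for 5 of 10 genes, against 31.5% of all tested genes. The median log2 fold change was 0.22 over the 10 genes and -0.01 over all tested genes.

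Hspa5 encodes BiP, the main chaperone of the endoplasmic reticulum, which also holds the stress sensors inactive. It stood at 883, 810 and 668 CPM in wild type, at 1000, 1275 and 1232 CPM in UTX_KO and at 803, 700 and 694 CPM in the libraries labelled MLL4_KD. Every UTX_KO library lay above every other library, while the other 2 groups overlapped. For UTX_KO the log2 fold change was 0.57 (SE 0.14, 95% interval 0.27 to 0.87, adjusted p = 0.0179). The call ended without wild type replicate 3 (adjusted p = 0.0502), UTX_KO replicate 2 (0.0825) or UTX_KO replicate 3 (0.0590), and with only these 2 groups in the fit (0.0531).

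Hsp90b1 encodes GRP94, the HSP90 chaperone of the same compartment. Its level was 1099, 827 and 869 CPM in wild type, 1274, 1366 and 1401 CPM in UTX_KO and 956, 900 and 1013 CPM in the libraries labelled MLL4_KD. The UTX_KO group was again the highest in all 3 libraries. Its log2 fold change of 0.53 (SE 0.12, adjusted p = 0.0154) was close in size to that of Hspa5. Without UTX_KO replicate 2 the adjusted p was 0.0593, without replicate 3 it was 0.0566, and with only these 2 groups in the fit it was 0.0529.

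Herpud1 encodes HERP, a membrane protein of the machinery that sends misfolded proteins out of the endoplasmic reticulum for degradation. It stood at 29.8, 34.1 and 33.6 CPM in wild type, at 13.4, 20.9 and 20.3 CPM in UTX_KO and at 17.3, 20.5 and 20.4 CPM in the libraries labelled MLL4_KD. Both perturbed groups lay wholly below wild type. The log2 fold change was -0.84 (SE 0.17, adjusted p = 0.0088) in UTX_KO and -0.74 (SE 0.17, adjusted p = 0.0084) in the libraries labelled MLL4_KD, with shared wild type libraries.

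Herpud1 lies on chromosome 8, where tested genes as a whole stood lower than wild type in both perturbed groups. The median log2 fold change of the 773 tested genes there was -0.44 in UTX_KO and -0.41 in the libraries labelled MLL4_KD. Relative to those medians Herpud1 stood at -0.39 and -0.33, values without a test. Of the 773 genes 130 (16.8%) had a lower log2 fold change than Herpud1 in UTX_KO and 180 (23.3%) in the libraries labelled MLL4_KD. The part of the chromosome in the fall of Herpud1 was not tested. The other 9 genes lie on other chromosomes, whose medians are seen in the plot by chromosome.

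**Figure D2:**
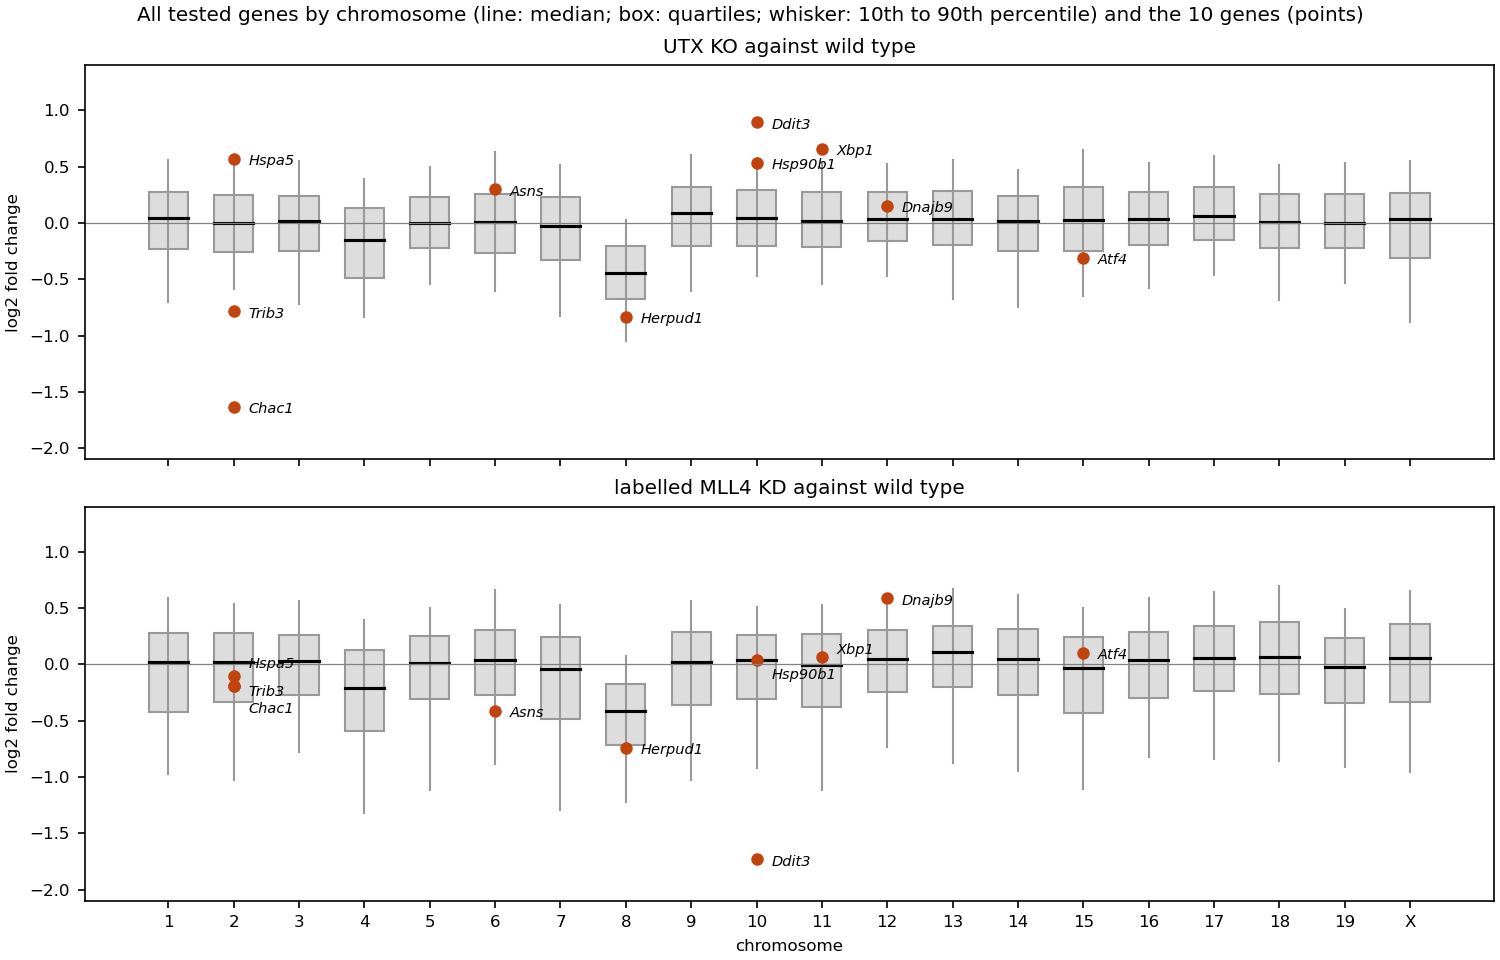
Log2 fold change (vertical axes) of all tested genes by chromosome, with medians as lines, quartiles as boxes and the 10th to 90th percentiles as whiskers, and the 10 genes as points, in UTX_KO (top) and the libraries labelled MLL4_KD (bottom) against wild type. The box of chromosome 8 lies below 0 in both panels, with medians of -0.44 and -0.41, and Herpud1 is the only one of the 10 genes on it.

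Dnajb9 encodes ERdj4, a co-chaperone of BiP that IRE1 and XBP1 are known to induce. It stood at 19.9, 19.1 and 18.9 CPM in wild type, at 18.4, 21.8 and 24.0 CPM in UTX_KO and at 23.2, 30.2 and 33.4 CPM in the libraries labelled MLL4_KD. The UTX_KO overlapped wild type, with a log2 fold change of 0.15 (95% interval -0.19 to 0.49, adjusted p = 0.562). The libraries labelled MLL4 knockdown all lay above wild type. There the log2 fold change was 0.59 (SE 0.15, adjusted p = 0.0169), and the call ended without replicate 2 (0.0664) or replicate 3 (0.0823) of that group.

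Xbp1 encodes the transcription factor whose RNA is spliced by IRE1, and spliced and unspliced forms are counted together here. Its level was 69.3, 79.5 and 70.2 CPM in wild type, 112, 121 and 112 CPM in UTX_KO and 85.9, 73.7 and 70.2 CPM in the libraries labelled MLL4_KD. The UTX_KO libraries stood clear of all 6 others. Its log2 fold change of 0.66 (SE 0.11, adjusted p = 0.0041) was a 1.58-fold higher mean level. The same-numbered differences on the log2 CPM scale were 0.70, 0.60 and 0.67, the most even of the 3 genes that rose.

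Atf4 encodes the transcription factor at the centre of the amino acid response, and is controlled in large part at translation. It stood at 291, 436 and 369 CPM in wild type, at 237, 317 and 329 CPM in UTX_KO and at 389, 375 and 412 CPM in the libraries labelled MLL4_KD. Wild type overlapped both perturbed groups. The log2 fold change was -0.31 (95% interval -0.66 to 0.04, adjusted p = 0.211) in UTX_KO and 0.10 (95% interval -0.25 to 0.45, adjusted p = 0.676) in the libraries labelled MLL4_KD.

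Ddit3 encodes CHOP, a transcription factor tied to cell death under lasting stress. Its level was 19.6, 41.1 and 27.4 CPM in wild type, 22.7, 68.3 and 72.9 CPM in UTX_KO and 6.35, 9.01 and 11.1 CPM in the libraries labelled MLL4_KD. The first UTX_KO library lay within the wild type range and the other two above it, while the libraries labelled MLL4_KD lay below all 6 others. The fall in the libraries labelled MLL4_KD was -1.73 on the log2 scale (SE 0.41, adjusted p = 0.0101), a mean level 0.30 times that of wild type.

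In UTX_KO the log2 fold change of Ddit3 was 0.89 (SE 0.39, adjusted p = 0.140). With the replicate number as a block it was 0.80 and passed the test (adjusted p = 0.0185), as it did without UTX_KO replicate 1 (1.26, adjusted p = 0.0163) and without the filter on low counts (0.90, adjusted p = 0.0300). The same-numbered differences were 0.21, 0.73 and 1.41. With this block 10.5% of all tested genes rose and 12.8% fell, and 4 of the 10 genes rose and 3 fell.

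Chac1 encodes an enzyme that degrades glutathione and is a target of ATF4 and CHOP. It stood at 10.3, 15.8 and 16.7 CPM in wild type, at 4.91, 4.02 and 4.88 CPM in UTX_KO and at 13.3, 12.3 and 11.7 CPM in the libraries labelled MLL4_KD. The UTX_KO libraries were the lowest 3 of the 9, and the libraries labelled MLL4_KD lay within the wild type range. Its log2 fold change was -1.63 (SE 0.20, adjusted p = 0.000907) in UTX_KO, the largest of the 10 genes there, and -0.19 (95% interval -0.61 to 0.22, adjusted p = 0.477) in the libraries labelled MLL4_KD. In UTX_KO, where Chac1 fell, the same-numbered differences of Atf4 were -0.30, -0.46 and -0.16, and those of Ddit3 lay above 0 in all 3 pairs.

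Trib3 encodes a pseudokinase that ATF4 and CHOP induce and that restrains ATF4. Its level was 18.4, 55.0 and 42.6 CPM in wild type, 17.6, 21.9 and 27.8 CPM in UTX_KO and 32.5, 36.8 and 32.6 CPM in the libraries labelled MLL4_KD. The low first wild type library made wild type overlap both groups. The log2 fold change in UTX_KO was -0.79 (SE 0.31, adjusted p = 0.108). It passed the test with the replicate block (-0.71, adjusted p = 0.0468), without wild type replicate 1 (-1.10, adjusted p = 0.00239) and without the filter on low counts (-0.78, adjusted p = 0.0276). In the libraries labelled MLL4_KD it was -0.19 (95% interval -0.86 to 0.48, adjusted p = 0.684).

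Asns encodes asparagine synthetase, a classical target of ATF4 when amino acids are short. It stood at 297, 587 and 504 CPM in wild type, at 413, 654 and 639 CPM in UTX_KO and at 330, 351 and 364 CPM in the libraries labelled MLL4_KD. Wild type again spread from the lowest of the 9 values to nearly the highest. For Asns the log2 fold change was 0.30 (95% interval -0.21 to 0.80, adjusted p = 0.413) in UTX_KO and -0.41 (95% interval -0.92 to 0.10, adjusted p = 0.214) in the libraries labelled MLL4_KD. Without wild type replicate 1 the latter was -0.63 and passed the test (adjusted p = 0.0218).

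The first library stood low for many of the 10 genes. Replicate 1 was the lowest of its group for 7 of 10 genes in wild type, 8 in UTX_KO and 5 in the libraries labelled MLL4_KD. Over all tested genes the shares were 35.0%, 36.9% and 38.9%. The same first wild type library held the low trophectoderm and primitive endoderm sums given above, and their part in these levels was not tested.

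In the libraries labelled MLL4_KD 1 of the 10 genes, Dnajb9, rose against wild type, and Herpud1 and Ddit3 fell. Over all tested genes 10.8% rose and 15.8% fell. The groups did not overlap for 3 of 10 genes, against 42.9% of all tested genes. The median log2 fold change was -0.15 over the 10 genes and -0.02 over all tested genes. For the chaperones and Xbp1 the log2 fold changes were small, at -0.10 for Hspa5 (95% interval -0.40 to 0.19, adjusted p = 0.614), 0.04 for Hsp90b1 (-0.23 to 0.31, adjusted p = 0.851) and 0.07 for Xbp1 (-0.18 to 0.31, adjusted p = 0.685).

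**Figure D3:**
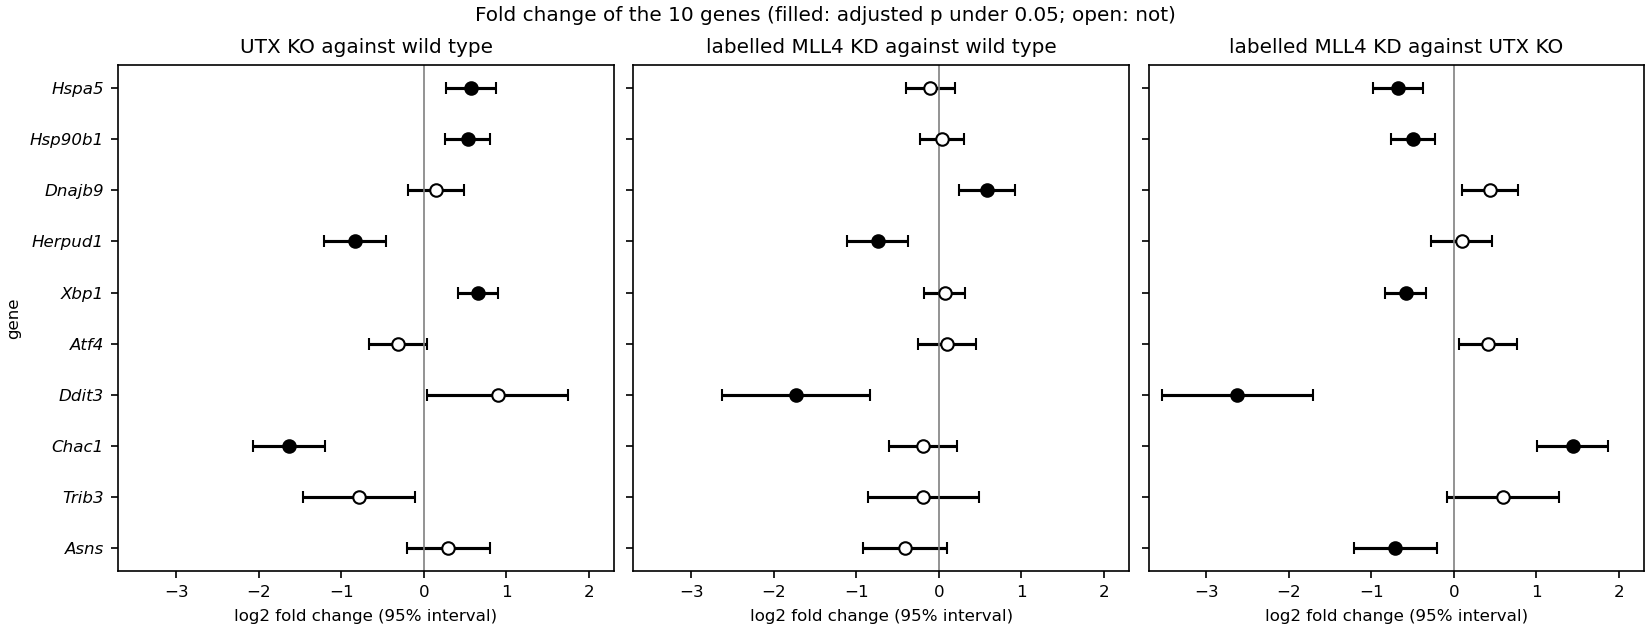
Log2 fold change (horizontal axes) of the 10 genes in UTX_KO against wild type (left), the libraries labelled MLL4_KD against wild type (middle) and the latter against UTX_KO (right), with bars for the 95% interval. Filled points have an adjusted p under 0.05. Chac1 stands lowest on the left at -1.63 and Ddit3 lowest in the middle at -1.73, and the panels share libraries.

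The perturbed groups were compared directly, which tests whether the genes differed between them. Against UTX_KO the libraries labelled MLL4_KD had 1 of the 10 genes higher and 5 lower. Over all tested genes 13.0% were higher and 16.0% lower. The groups did not overlap for 8 of 10 genes, against 52.6% of all tested genes. The median log2 fold change was -0.20 over the 10 genes and -0.02 over all tested genes.

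Among the chaperones and factors, Hspa5 stood lower, with a change of -0.67 on the log2 scale (SE 0.14, adjusted p = 0.0043) and Hsp90b1 by -0.49 (SE 0.12, adjusted p = 0.0122). The call for Hsp90b1 ended without replicate 2 of the libraries labelled MLL4_KD (adjusted p = 0.0597). Xbp1 was lower by -0.59 (SE 0.11, adjusted p = 0.0031). Ddit3 differed most of the 10 genes, at -2.63 (SE 0.42, adjusted p = 0.0012), and the same-numbered differences of -1.82, -2.91 and -2.70 lay far from 0. Among the downstream genes Chac1 moved the other way, at 1.44 (SE 0.20, adjusted p = 0.000557). Chac1 was thus the higher, and Ddit3 the lower, in the libraries labelled MLL4_KD.

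Asns was lower, at -0.71 (SE 0.23, adjusted p = 0.0399), a call near the threshold that ended when some single libraries were left out. Its adjusted p was 0.144 without UTX_KO replicate 2, 0.117 without UTX_KO replicate 3, and 0.116, 0.102 and 0.0893 without replicates 1, 2 and 3 of the libraries labelled MLL4_KD. The log2 fold change of Asns in these fits was -0.59 to -0.74. Dnajb9 at 0.44 (SE 0.15, adjusted p = 0.0522) and Atf4 at 0.41 (SE 0.16, adjusted p = 0.0738) missed the test. They passed it with the replicate block, at 0.43 for Dnajb9 (adjusted p = 0.0257) and 0.43 for Atf4 (adjusted p = 0.0214), and with this block 17.0% of all tested genes were higher and 19.7% lower. Trib3 stood at 0.60 (95% interval -0.08 to 1.27, adjusted p = 0.171) and Herpud1 at 0.09 (95% interval -0.28 to 0.47, adjusted p = 0.715).

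Sequencing lanes divide the libraries, with replicates 1 and 3 in lane 2 and replicate 2 in lane 1, so lane 1 holds a single library per group and gives no test. In lane 2 alone edgeR called 0 of the 10 genes in UTX_KO, 0 in the libraries labelled MLL4_KD and 3 between them. Over all tested genes the shares called were 0.501%, 9.08% and 10.4%. At an unadjusted p under 0.05 these counts were 5, 3 and 6, and all genes called over both lanes kept their direction. With the replicate block within lane 2, a setting chosen after seeing the data, 5, 3 and 7 were called, against 14.8%, 27.7% and 30.9% of all tested genes. The 5 in UTX_KO then included Ddit3 (adjusted p = 0.0352) and not Hsp90b1 (0.0571), and the 7 included Atf4 (0.00964). Over all alternatives tried, Xbp1, Ddit3 and Chac1 passed the test between the perturbed groups in 17 of 17.

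The nearest genes by pattern were found for Hspa5 and Asns, as the smallest root mean square difference of centred log2 CPM over the 9 libraries among 7999 other genes of mean log2 CPM of at least 4. For Hspa5 they were Prcp at 0.0919, Ppp3ca at 0.0932 and Tmx2 at 0.0945 on the log2 scale. For Asns they were Dap at 0.123, Ift46 at 0.133 and Gys1 at 0.138. Members were left out of this search, and none of these 6 genes belongs to the pathway lists, which do not cover every gene of the endoplasmic reticulum.

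The pathway around the 10 genes was read from 133 further genes in 10 lists, from sensors and folding enzymes to amino acid transporters and tRNA synthetases, all of which were tested. Against wild type 9 rose and 14 fell in UTX_KO, and 11 rose and 21 fell in the libraries labelled MLL4_KD. Between the perturbed groups 16 were higher and 25 lower in the latter. In UTX_KO these were 6.77% and 10.5% of the 133, in the libraries labelled MLL4_KD 8.27% and 15.8%, and between the groups 12% and 18.8%. The shares lie near those over all tested genes given above, so the counts alone are no result about the pathway. Median log2 fold changes were 0.02, -0.04 and -0.02. With the replicate block 14 rose and 19 fell in UTX_KO, 18 rose and 22 fell in the libraries labelled MLL4_KD, where over all tested genes 14.6% rose and 19.5% fell, and 18 were higher and 29 lower between them. The block added 10, 8 and 6 calls and ended 0. Of the 23 and 25 genes that the naming rule gave in the comparisons with wild type, 8 and 9 kept the call without each library in turn. Those are the genes described next, a choice made after their values were seen.

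Among 20 genes of folding and disulfide formation 3 rose (5 with the replicate block) and 0 fell in UTX_KO, with a median of 0.28. Pdia4, a disulfide isomerase, stood at 249, 229 and 231 CPM in wild type and at 314, 408 and 400 CPM in UTX_KO, without overlap, a change of 0.66 on the log2 scale (SE 0.12, adjusted p = 0.0048). Dnajc3, an inhibitor of PERK and a co-chaperone of BiP, rose by 0.72 (SE 0.13, adjusted p = 0.0052) from 61.0, 54.3 and 59.1 to 77.9, 109 and 100.2 CPM. In the libraries labelled MLL4_KD 1 of the 20 rose (2 with the block) and 2 fell. The rise was again Dnajc3, by 0.46 (SE 0.13, adjusted p = 0.0230), a call that ended without each library of that group in turn. Calr, the calcium-binding lectin chaperone calreticulin, stood there at 597, 576 and 674 CPM against 1059, 1055 and 970 CPM in wild type, a change of -0.74 on the log2 scale (SE 0.13, adjusted p = 0.0019). Calr lies on chromosome 8. Between the perturbed groups 12 of the 20 were lower in the libraries labelled MLL4_KD and 0 higher, with a median of -0.37, the same direction as Hspa5 and Hsp90b1. Shares over all tested genes in that comparison were 16.0% lower and 13.0% higher.

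Of 17 genes of degradation from the endoplasmic reticulum, the process in which Herpud1 acts, 1 rose (2 with the block) and 3 fell in UTX_KO, and 5 rose (6 with the block) and 1 fell in the libraries labelled MLL4_KD. Derl3, a Derlin of the export machinery, rose in UTX_KO by 0.98 (SE 0.21, adjusted p = 0.0104), from 4.25 to 7.17 CPM in wild type to 9.28 to 12.3 CPM. Vcp, the ATPase that pulls proteins out of the membrane, fell there by 0.53 on the log2 scale (SE 0.10, adjusted p = 0.0054), and lies on chromosome 4. Of 10 sensors, eIF2alpha kinases and ATF6 proteases 1 rose and 1 fell in UTX_KO, and 2 rose (3 with the block) and 1 fell in the libraries labelled MLL4_KD. The kinase HRI, encoded by Eif2ak1, rose only in the second comparison, by 0.54 (SE 0.10, adjusted p = 0.0034), and stood at 0.00 in the first (adjusted p = 0.981). It was higher in the libraries labelled MLL4_KD than in UTX_KO by 0.54 (SE 0.10, adjusted p = 0.0034). Mbtps1, a protease that cleaves ATF6 and lies on chromosome 8, fell in both, by 0.54 (SE 0.10, adjusted p = 0.0047) and 0.42 (SE 0.10, adjusted p = 0.0083) on the log2 scale.

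**Figure D4:**
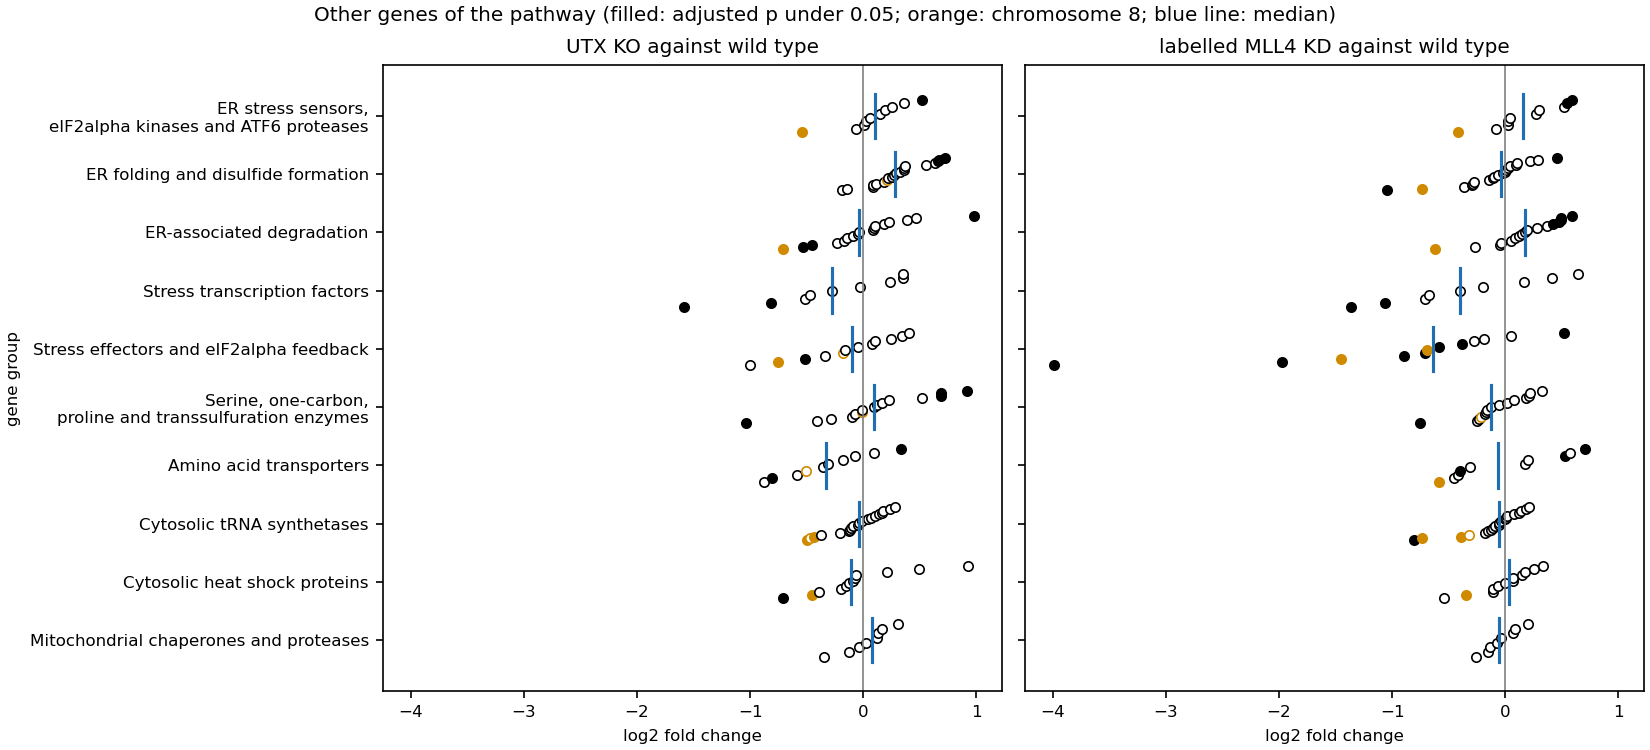
Log2 fold change (horizontal axes) of the 133 other pathway genes by list in UTX_KO (left) and the libraries labelled MLL4_KD (right) against wild type, 1 point per gene, filled where the adjusted p is under 0.05 and orange on chromosome 8, with a blue line at the median of each list. The stress effectors have 8 of 12 genes called lower on the right and 2 of 12 on the left, and their leftmost point on the right is Fgf21, a fitted value from counts of 0 to 2.

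Of 12 stress effectors and genes of eIF2alpha feedback 0 rose (1 with the block) and 2 fell in UTX_KO, and 1 rose and 8 fell in the libraries labelled MLL4_KD, with a median of -0.64. Shares over all tested genes in the latter were 10.8% rising and 15.8% falling. Ddit4, which encodes the mTORC1 inhibitor REDD1, stood at 184, 196 and 192 CPM in wild type, at 120.0, 188 and 247 CPM in UTX_KO and at 23.5, 66.9 and 55.1 CPM in the libraries labelled MLL4_KD. The last group lay below all other libraries, as it did for Ddit3. This was a change of -1.97 on the log2 scale (SE 0.33, adjusted p = 0.0017). Fgf21, a secreted hormone, had 5, 22 and 29 counts in wild type, 11, 4 and 12 in UTX_KO and 1, 2 and 0 in the libraries labelled MLL4_KD, and passed the test in the last group (adjusted p = 0.0064). Of 9 other stress transcription factors 2 fell and 0 rose in each comparison with wild type. With the block Nfe2l2 rose in both and Atf5 in the libraries labelled MLL4_KD. Atf3 stood at 3.58, 6.09 and 4.97 CPM in wild type and at 1.57, 1.47 and 1.86 CPM in UTX_KO, a change of -1.58 on the log2 scale (SE 0.28, adjusted p = 0.0052), close in size to Chac1. Creb3l1, a membrane-bound factor related to ATF6, fell in the libraries labelled MLL4_KD by 1.36 on the log2 scale (SE 0.27, adjusted p = 0.0042).

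On the amino acid side, where Asns belongs, 3 of 15 serine, one-carbon, proline and transsulfuration genes rose and 1 fell in UTX_KO, and 0 rose (1 with the block) and 1 fell in the libraries labelled MLL4_KD. Mthfd1l, a mitochondrial folate enzyme, rose in UTX_KO by 0.69 (SE 0.12, adjusted p = 0.0043), from 115 to 127 CPM to 162 to 212 CPM. Of 10 amino acid transporters 1 rose and 1 fell (3 with the block) in UTX_KO, and 2 rose and 2 fell (3 with the block) in the libraries labelled MLL4_KD. Slc38a1, a glutamine transporter, rose in the latter by 0.70 (SE 0.12, adjusted p = 0.0021), with all 3 libraries at 282 to 300 CPM above the 156 to 213 CPM of wild type. Of 20 cytosolic tRNA synthetases 0 rose and 2 fell (4 with the block) in UTX_KO, and 0 rose and 3 fell in the libraries labelled MLL4_KD. Sars fell in the latter by 0.81 (SE 0.16, adjusted p = 0.0042) and Kars, on chromosome 8, by 0.73 (SE 0.11, adjusted p = 0.00068) on the log2 scale. Kars fell in UTX_KO as well, at -0.44 (SE 0.11, adjusted p = 0.0188), a call that ended without UTX_KO replicate 2 (0.0659) or 3 (0.0525).

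Protein folding outside the endoplasmic reticulum was read as a comparison. Of 12 cytosolic heat shock genes 0 rose and 2 fell in UTX_KO, and 0 rose (1 with the block) and 1 fell in the libraries labelled MLL4_KD. Dnaja1, a co-chaperone of HSP70 on chromosome 4, fell in UTX_KO by 0.71 on the log2 scale (SE 0.11, adjusted p = 0.0022). The other fall there, Dnajb1, lies on chromosome 8. Of 8 mitochondrial chaperones and proteases 0 passed the test in either comparison. At an unadjusted p under 0.05 2 did in UTX_KO and 0 in the libraries labelled MLL4_KD, and with the block Hspd1 fell in UTX_KO (adjusted p = 0.0387).

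**Figure D5:**
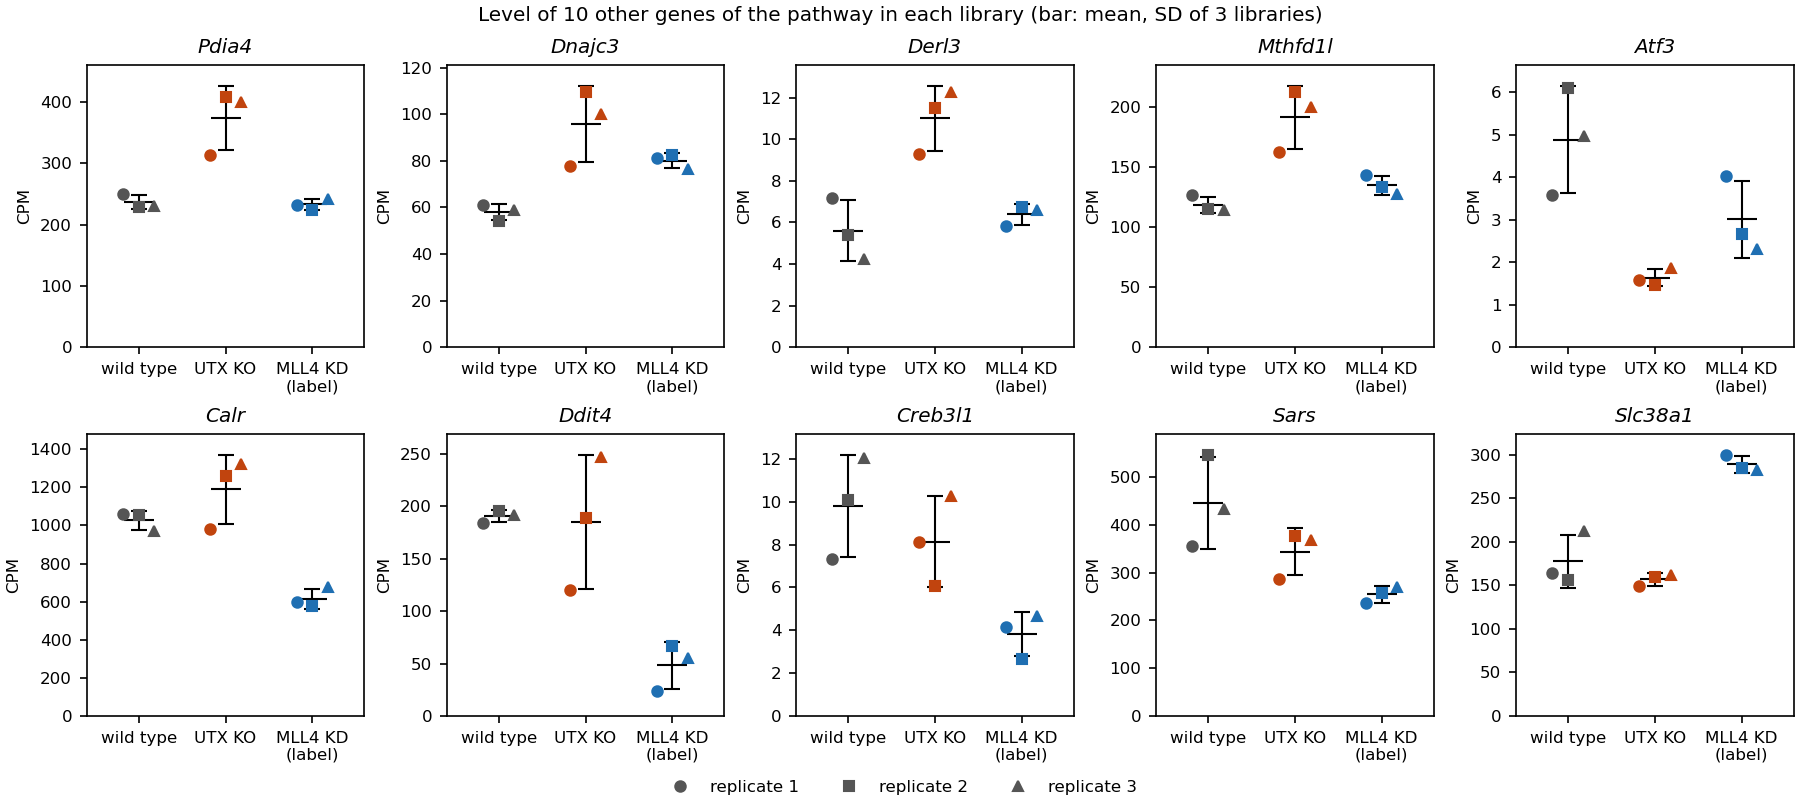
Level in CPM (vertical axes, each from 0) of 10 other genes of the pathway in the 3 groups, with 1 point per library and bars for the mean and SD of 3 libraries. Pdia4, Derl3 and Mthfd1l are highest in UTX_KO, and Calr, Ddit4, Creb3l1 and Sars lowest in the libraries labelled MLL4_KD. Dnajc3 has its highest mean in UTX_KO, whose first library (77.9 CPM) lies below libraries labelled MLL4_KD at 81.2 and 82.6 CPM.

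Many of the falls among the 133 genes lay on 2 chromosomes. Chromosome 4 had medians of -0.15 and -0.21 over its tested genes, and held 7 of the 133 genes, while chromosome 8 held 11. Of the 14 falls in UTX_KO 5 were on chromosome 4 and 6 on chromosome 8, or 78.6%, against 35.5% of the falls among all tested genes. Of the 21 falls in the libraries labelled MLL4_KD 1 was on chromosome 4 and 9 on chromosome 8, or 47.6%, against 24.8% of all falls. Of the 9 rises in UTX_KO 0 lay on either chromosome, against 4.96% of the rises among all tested genes, which is near that share. Of the 11 rises in the libraries labelled MLL4_KD 1 lay on chromosome 4 and 0 on chromosome 8, or 9.09%, against 4.71% of all rises. The part of these chromosomes in the falls was not tested.

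Hspa5 and Ddit3 overlap neighbours, and how reads in such stretches were counted is not known. In the RefSeq annotation Hspa5 overlaps Rabepk by 1921 bases, and Ddit3 overlaps Mars1 by 71 bases and Mbd6 by 77 bases. These are overlaps of whole genes from start to end, which need not lie in exons. The sources used here do not give the strand setting of the counting, so reads of overlapping genes on opposite strands cannot be told apart.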

How the data were processed

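RNA of 9 libraries was sequenced after TruSeq preparation, per the labels. The deposited table, made by the authors, holds raw counts of reads for each gene symbol, and each column was matched to a library by sample title. The submitters' processing notes name STAR 2.4, HTSeq 0.6.1, mm9 and hg19, with no roles. Annotation and counting filters: not given in the sources used here. Of 33924 genes 24396 had a count, and 14772 were kept by filterByExpr of edgeR and tested.

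The main test was the quasi-likelihood test of edgeR 4.0.16 (R 4.3.3) with TMM factors, fitted to all libraries with group as the only term, two-sided, calling genes at a Benjamini-Hochberg adjusted p under 0.05. The standard error is the size of the log2 fold change over the square root of F, and intervals are at 95%. Log2 CPM used a prior count of 2. No exact permutation test was run, since 3 against 3 libraries allow no p under 0.1. On simulated counts for UTX_KO against UTX_WT (14559 genes), 67% of genes changed by 1 on the log2 scale and 87% of those changed by 2 were recovered, with 13 false calls. The simulated libraries were drawn independently, with only 100 genes changed at each size. In these data same-numbered libraries deviated together and more genes were called, so the shares recovered need not hold here.

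Whether the libraries of a group are separate cultures is not stated, so the p-values reflect only how far these samples differ, and that spread may be technical. Every pair within a group differed by more than sampling noise, at a chi-square of 6.67 to 61.0 per degree of freedom. Same-numbered libraries deviated together across genes, which are not independent replicates. Replicates 1, 2 and 3 correlated at 0.415, 0.168 and 0.381 (UTX_KO, UTX_WT), 0.416, 0.182 and 0.238 (MLL4_KD, UTX_WT) and 0.467, 0.181 and 0.308 (MLL4_KD, UTX_KO). Some differently numbered libraries correlated about as highly, at 0.226 for MLL4_KD 2 with UTX_KO 3 and 0.158 for UTX_KO 3 with UTX_WT 2. Others were negative, down to -0.412 for UTX_KO 3 with UTX_WT 1. Deviations were taken from each group's mean and cancel within a group, so positive values for some pairs bring negative ones for others. The negative values are thus no separate sign of pairing. Replicates 2 and 3 were thus less clearly told apart than replicate 1. The numbers were taken to pair the libraries, an assumption on which every blocked call rests. Blocked values, or blocked counts for the other pathway lists, are given where they change a call against wild type.

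The members and lists were chosen with earlier results of these data known. Named besides the members were Kdm6a, Kmt2d, from each list up to 3 rises and 3 falls by size in each comparison with wild type, and the nearest genes to Hspa5 and Asns. Of these list genes, those that kept the call without each library are described. Of 180 list genes 3 matched through an older symbol and 0 were unmatched. Chromosomes (97.2% of tested genes) and overlaps came from RefSeq on GRCm38.p6, and exon lengths from GENCODE on GRCm38. Alternatives were DESeq2 1.42.0, RLE and upper quartile factors, no filter, a filter of CPM over 1 in at least 6 libraries, the replicate block, only the 2 groups compared, lane 2 only, each library left out, and chromosome medians.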

Additional observations from a re-analysis of the deposited data

How the results depend on the processing

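No alternative reversed a direction that had passed the test: the 14 called results of the 10 genes kept their sign in 238 of 238 values and passed the test in 212. Of the 10 genes 5 were called in UTX_KO against wild type, 3 with only the 2 groups compared in the fit, 0 in lane 2 alone, and 3 to 6 when each library was left out, 3 without UTX_KO replicate 2 or 3. The 23 calls among the 133 other pathway genes became 12 with only the 2 groups, 0 in lane 2 alone (31 at an unadjusted p under 0.05, edgeR), and 9 to 31 without each library, lowest without UTX_KO replicate 2. Over all 14772 tested genes 968 rose and 1317 fell in the main fit. With only the 2 groups these were 483 and 757 of 14522. Without UTX_KO replicate 2 they were 330 and 503 of 15071, and without wild type replicate 1 they were 1312 and 1542 of 15024. In the libraries labelled MLL4_KD against wild type the 3 calls became 0 in lane 2 alone, and the 32 calls among other genes became 7 there and 13 to 35 without each library, 13 without each library of that group in turn. Between the perturbed groups the 6 calls became 3 in lane 2 alone, and the 41 calls among other genes became 11 there and 22 to 48 without each library, lowest without UTX_KO replicate 2 or replicate 1 of the libraries labelled MLL4_KD. For the libraries labelled MLL4_KD 1592 of all tested genes rose and 2338 fell against wild type, and 797 and 1476 without their replicate 2. Between the perturbed groups 1915 of all tested genes were higher and 2360 lower, and 1011 and 1545 without UTX_KO replicate 2. Such shifts in the counts are thus not particular to these genes. Lane 2 leaves 2 libraries per group. With the replicate block within lane 2, added after seeing the data, 25, 35 and 40 other genes were called. With the replicate block over all libraries 7, 3 and 8 of the 10 genes were called, and beyond the calls given above it changed no other call among the 10. The fitted settings did not shift the median of all genes by over 0.1 (log2).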
